A study of Mus musculus with 11 samples.

Results

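The genes described here are 10 that brain endothelial cells are known for: Cldn5, Ocln, Pecam1, Slc2a1, Mfsd2a, Abcb1a, Tek, Flt1, Kdr and Vwf. They were taken by name, whatever their values, from the 22609 genes of the count table, and all 10 were found and passed the filter on low counts. They were followed through bulk RNA-seq of polyadenylated RNA from 11 mouse libraries, 3 labelled Control, 3 NFKO, 2 AnkGKO and 3 DKO, where NFKO is the knockout of Neurofascin (Nfasc), AnkGKO that of Ankyrin G (Ank3) and DKO that of both. The knockouts carried floxed Nfasc, floxed Ank3 or both, together with Pcp2-Cre, a transgene that drives Cre recombinase mainly in Purkinje cells, so that endothelial cells were not the intended target in any group. The Control mice carried floxed alleles and lacked Cre by the study's methods, although its results text writes their genotype with Pcp2-Cre. The mice were untreated, on a mixed C57BL/6J and 129 background, of mixed sex and 30 days old by the sample descriptions (32 by the growth protocol), and each library is labelled as a separate biological replicate.

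Endothelial cells line the vessels, and in the brain and spinal cord they form the barrier between blood and nervous tissue. Tight junctions seal the gaps between neighbouring cells, vesicle traffic across the cell is kept low, and dedicated transporters carry nutrients in and pump foreign compounds out. VEGF-A acts through its receptor Kdr (VEGFR2) to drive vessel growth and survival, Flt1 (VEGFR1) binds the same ligand and can act as a decoy, and Tek (Tie2) is the receptor of the angiopoietins that keep vessels quiet. In bulk tissue, a lower level of such a gene can come from fewer endothelial cells or from less RNA per cell, which cannot be told apart here.

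The tissue and the libraries were checked first. The endothelial markers Cldn5, Pecam1, Cdh5, Tie1, Esam, Emcn and Ly6c1 were present in every library, the lowest of them being Emcn at 5.55 to 12.1 counts per 1000000 reads counted on genes (CPM). Markers of other vascular and neighbouring cells differed between libraries, and their levels are given beside the genes that moved with them. The tissue is labelled cerebellar hemisphere, but Pcp2, the defining Purkinje cell gene, lay between 0.0929 and 2.14 CPM in all libraries except Control replicate 1 (26.3 CPM) and NFKO replicate 1 (28.3 CPM). These same libraries held summed levels of 8 granule cell markers of 797 and 677 CPM, against 119 to 203 CPM in the other 9, and stand apart on that account. A group of 12 caudal Hox genes, which the cerebellum normally lacks and the spinal cord expresses, summed to 395 to 615 CPM in every library. Ank3 was at 353 to 407 CPM in Control and NFKO and at 156 to 200 CPM in AnkGKO and DKO. Pcp2 was at only 0.103 to 0.374 CPM in these AnkGKO and DKO libraries, and which cells had less Ank3 RNA was not tested. Nfasc was at 661 to 718 CPM in Control, 622 to 701 CPM in NFKO, 717 to 953 CPM in AnkGKO and 559 to 606 CPM in DKO, so that NFKO overlapped Control while DKO lay below every other library. Xist, the RNA of the inactive X chromosome, was at 0.344 to 1.39 CPM in all NFKO and AnkGKO libraries and in 1 Control library, and at 28.4 to 598 CPM in the other libraries, 2 of Control and 3 of DKO, so that Xist was not balanced over the genotypes. Each library held 38.9 to 55.8 M reads counted on genes (M, 1000000), at which 3 counts correspond to 0.0537 to 0.0771 CPM, and all 10 genes stood well above that level.

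The promoters of the 3 receptor genes are shown because these genes moved together over the libraries while only Kdr differed between genotypes by the test. Each line holds the 250 bases before the start of the gene, from RefSeq on GRCm38.p6 and on the gene's own strand, and capitals mark the core binding letters of the ETS family, transcription factors that endothelial genes depend on, as AGGAAG or CCGGAA on either strand.
Kdr, chr5:75978456-75978705, minus strand: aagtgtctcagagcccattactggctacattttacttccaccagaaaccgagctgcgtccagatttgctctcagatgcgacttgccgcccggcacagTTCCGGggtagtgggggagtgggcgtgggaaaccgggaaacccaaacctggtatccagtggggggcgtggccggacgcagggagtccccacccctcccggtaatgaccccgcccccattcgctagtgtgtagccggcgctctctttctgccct
Flt1, chr5:147726012-147726261, minus strand: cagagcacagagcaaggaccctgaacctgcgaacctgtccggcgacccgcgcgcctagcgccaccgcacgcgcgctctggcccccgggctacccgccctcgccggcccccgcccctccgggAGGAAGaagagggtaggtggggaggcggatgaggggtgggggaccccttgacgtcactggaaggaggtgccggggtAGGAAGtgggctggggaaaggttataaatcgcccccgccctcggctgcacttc
Tek, chr4:94739039-94739288, plus strand: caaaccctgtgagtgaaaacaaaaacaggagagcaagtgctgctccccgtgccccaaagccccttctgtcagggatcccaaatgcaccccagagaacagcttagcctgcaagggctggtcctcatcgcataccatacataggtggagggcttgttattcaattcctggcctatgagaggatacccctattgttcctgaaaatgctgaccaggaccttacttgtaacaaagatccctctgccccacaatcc

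Over the 300 bases around the start (250 before it and 50 after), Kdr held 1 such match, Flt1 held 2 and Tek held 0. RefSeq promoters were found for 8 of the 10 genes, all but Pecam1 and Vwf, and 4 of the 8 (50%) held an ETS core, close to the 45.2% of all 27025 promoters of the same length. The GC box GGGCGG, which SP1 and KLF factors bind, was present in 5 of 8 (62.5%), against 35.9% of all promoters. TATAAA, the TATA box, stood in 2 of 8 promoters (14.2% of all promoters). The hypoxia response core ACGTG was found in 2 of 8 (19.7%). A SOX factor core, ACAAAG, also stood in 2 of 8 (18.7%). The forkhead core TAAACA was present in 1 of 8 (13.4%). The GATA core AGATAA was likewise present in 1 of 8 (11.4%), and both strands were searched for every motif. The promoters differed in composition, from 29 CpG and 70.7% GC in Flt1 and 19 CpG and 60.7% GC in Kdr to 3 CpG and 52.0% GC in Tek. These matches describe the letters of the windows and were not tested against the expression data.

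In the GENCODE annotation of GRCm39, Kdr lies at chr5:76093487-76139884 and Flt1 at chr5:147498414-147662826, both on the minus strand, and Tek at chr4:94627291-94763224 on the plus strand, and counts are reads over the exons of the whole gene. Whether the counting used strand is not given in the sources used here.

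Levels between genes can be compared only per length, and CPM per kilobase of exon is used for this order alone. In Control, the glucose transporter Slc2a1 was highest at 46.1 ± 3.07 CPM per kilobase (SD, n = 3), followed by the claudin Cldn5 at 32.9 ± 5.5 and the lipid transporter Mfsd2a at 25.1 ± 3.26. A wide gap separated these from the efflux pump Abcb1a at 8.10 ± 0.917 and the receptor Flt1 at 6.07 ± 0.184. Tek (3.58 ± 0.452), Pecam1 (3.10 ± 0.530), Vwf (2.37 ± 1.29), Kdr (2.00 ± 0.381) and Ocln (1.29 ± 0.0552) came last, and Tek and Pecam1 differed by about as much as their spread, as did Vwf and Kdr. Slc2a1 and Ocln are not confined to endothelial cells, and the same holds for several other genes here.

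**Figure D1:**
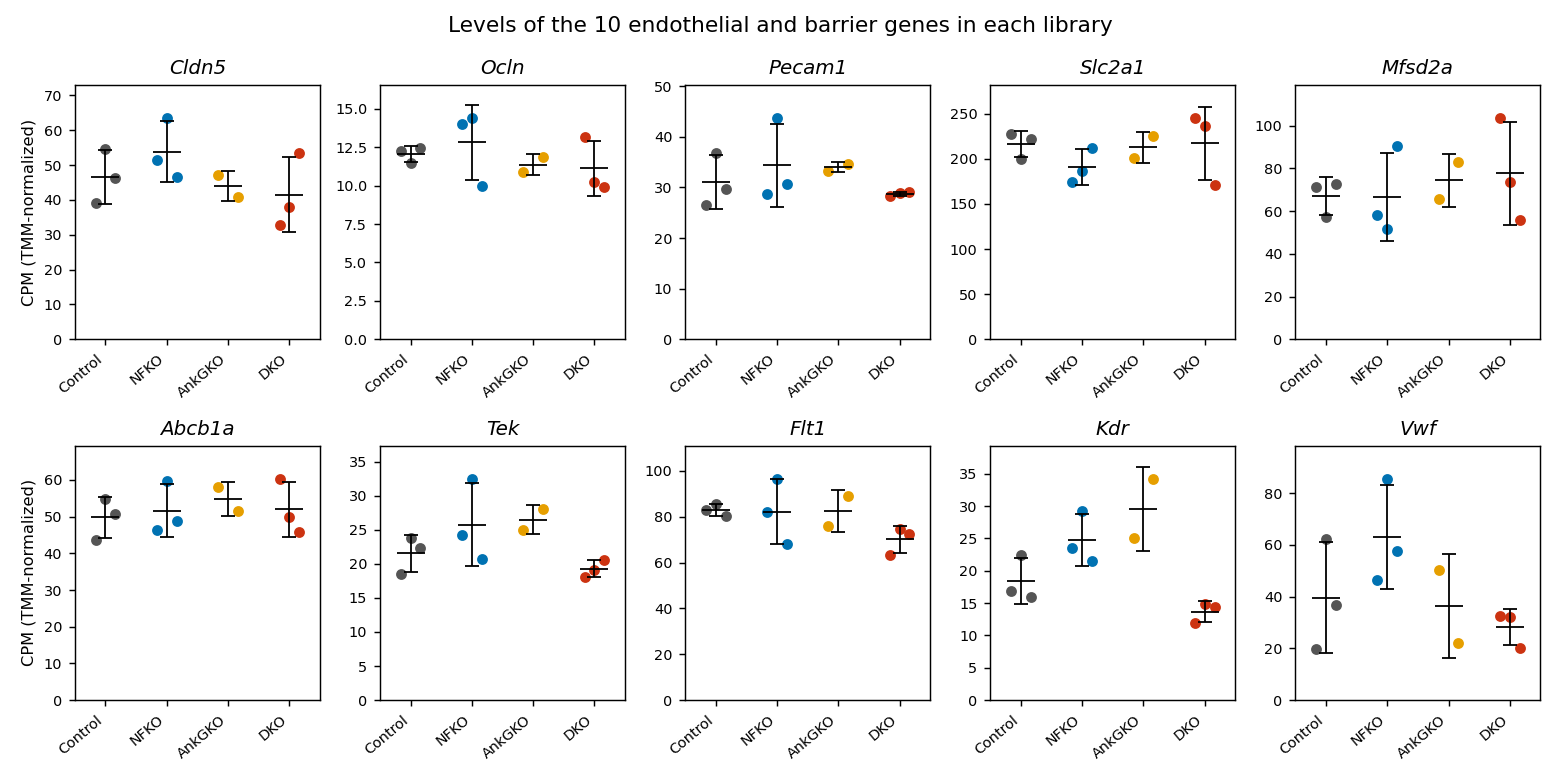
Each panel plots the TMM-normalized CPM of 1 gene in the 11 libraries, with colored points for libraries grouped by genotype and black bars for the mean ± SD. The 3 DKO libraries of Kdr (11.9 to 14.8 CPM) lie below all others, whereas the genotypes overlap for Slc2a1, Mfsd2a, Abcb1a and Ocln.

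Levels of the tight junction genes overlapped between genotypes. Cldn5, the main claudin of brain endothelium, was at 39.0, 54.6 and 46.3 CPM in Control, 51.3, 63.5 and 46.5 CPM in NFKO, 47.1 and 40.9 CPM in AnkGKO and 32.7, 38.1 and 53.5 CPM in DKO. DKO thus contained both the lowest library of all and 1 of the highest, and no genotype was separate from another. The log2 fold change of Cldn5 was 0.20 in NFKO (95% confidence interval -0.23 to 0.64), -0.08 in AnkGKO (-0.57 to 0.40) and -0.17 in DKO (-0.60 to 0.27), each against Control. DKO against NFKO gave -0.37 (-0.81 to 0.06) for Cldn5. Ocln, the occludin of the same junctions, ranged over the 11 libraries from 9.90 to 14.4 CPM, with log2 fold changes against Control from -0.12 to 0.09. Intervals for both genes included 0 in every comparison, and that of Cldn5 in NFKO against Control reached up to a fold of 1.56. Pecam1, an adhesion molecule of endothelial junctions and platelets, was at 28.2, 28.8 and 29.0 CPM in DKO, inside the Control range of 26.5 to 36.9 CPM and below the AnkGKO libraries at 33.2 and 34.7 CPM. Its log2 fold change was -0.24 for DKO against AnkGKO (-0.62 to 0.14) and -0.11 for DKO against Control (-0.46 to 0.23).

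Transporters of the barrier showed no called difference either. Slc2a1 (GLUT1), which carries glucose across the barrier, was at 227, 200 and 222 CPM in Control, 174, 186 and 212 CPM in NFKO, 201 and 225 CPM in AnkGKO and 245, 236 and 171 CPM in DKO. The DKO libraries included both the highest and the lowest of the 11. Log2 fold changes of Slc2a1 were -0.18 in NFKO (95% interval -0.46 to 0.10), -0.02 in AnkGKO (-0.34 to 0.29) and 0.01 in DKO (-0.27 to 0.28) against Control. Mfsd2a, which imports docosahexaenoic acid and restrains vesicle traffic, varied more, from 51.8 to 104 CPM, with both NFKO (51.8 to 90.3 CPM) and DKO (55.9 to 104 CPM) covering most of that range. In DKO against Control, Mfsd2a had a log2 fold change of 0.21 with an interval from -0.41 to 0.83. Abcb1a, the drug efflux pump P-glycoprotein, had the smallest range of the 10 genes relative to its level, from 43.7 to 60.3 CPM. Log2 fold changes of Abcb1a against Control ran from 0.05 to 0.14, and the interval for DKO was -0.22 to 0.34.

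**Figure D2:**
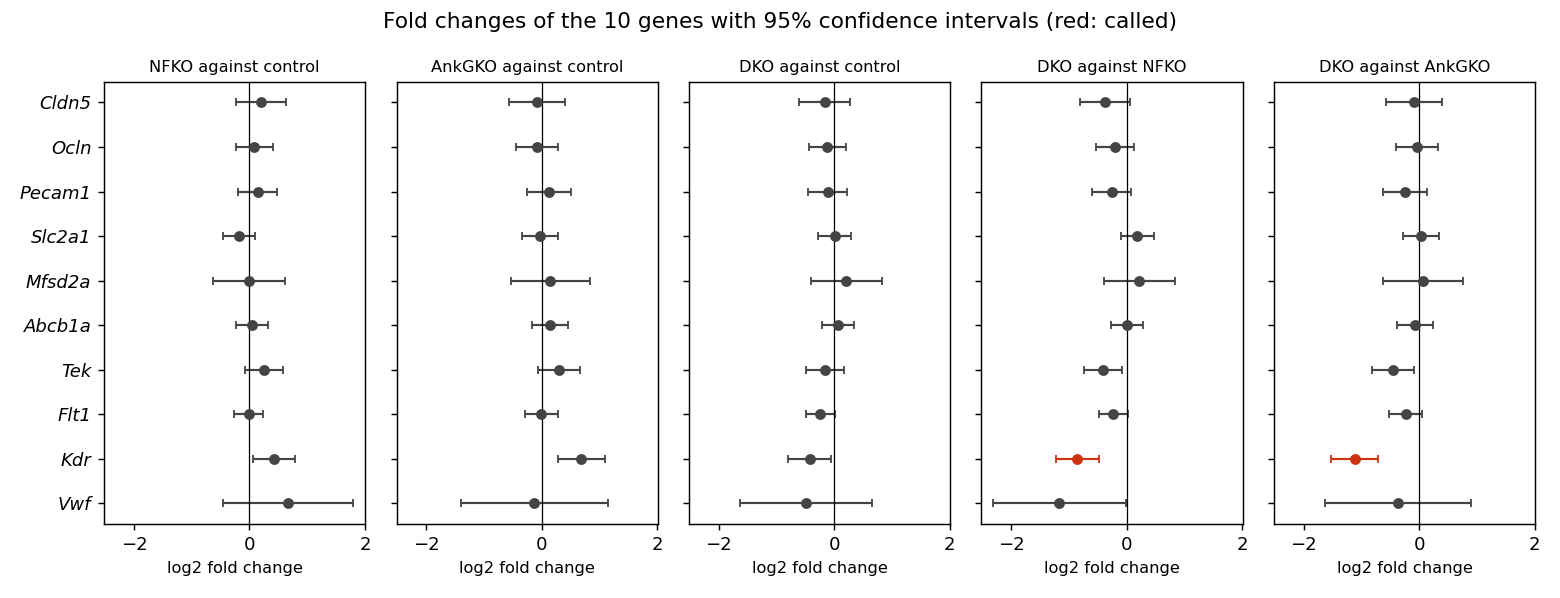
Points give the log2 fold change of each gene in 5 comparisons and bars its 95% confidence interval, with red for genes called, which needs an adjusted p under 0.05 together with a log2 fold change past 0.6 in either direction. Only Kdr is red, at -0.86 against NFKO and -1.11 against AnkGKO, and the widest intervals are those of Vwf.

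Among the receptors, Kdr differed most between genotypes. It was at 16.9, 22.4 and 15.9 CPM in Control, 23.5, 29.2 and 21.6 CPM in NFKO, 25 and 34.2 CPM in AnkGKO and 11.9, 14.8 and 14.4 CPM in DKO. The 3 DKO libraries were the lowest 3 of 11, both AnkGKO libraries lay above all Control libraries, and NFKO overlapped Control in 1 library. On means, Kdr in DKO was 44.8% lower than in NFKO, 53.8% lower than in AnkGKO and 25.6% lower than in Control. The log2 fold change was -0.86 for DKO against NFKO (standard error 0.17, adjusted p = 0.0452 in the quasi-likelihood F-test of edgeR, corrected over all genes after Benjamini and Hochberg) and -1.11 for DKO against AnkGKO (standard error 0.19, adjusted p = 0.0460 from the same test). Kdr was thus 1 of 10 genes called in each of these comparisons, against 0.615% of all 17557 genes tested for DKO against NFKO and 0.171% for DKO against AnkGKO.

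Against Control, none of the 10 genes passed the test, and the share of all genes called was 0.365% in NFKO, 0.165% in AnkGKO and 0.0228% in DKO. Kdr had a log2 fold change of 0.43 in NFKO (95% interval 0.06 to 0.80, adjusted p = 0.547 in edgeR), 0.69 in AnkGKO (0.28 to 1.09, adjusted p = 0.374) and -0.43 in DKO (-0.80 to -0.06, adjusted p = 0.619). Its unadjusted p was 0.0269, 0.00345 and 0.0281 in these comparisons, and in each of them Kdr was the only 1 of the 10 genes with an unadjusted p under 0.05, a level that 7.69%, 5.39% and 7.77% of all genes reached. With DESeq2, the tool of the study, Kdr passed for AnkGKO against Control (log2 fold change 0.69, adjusted p = 0.0215). NFKO and AnkGKO differed in Kdr by -0.26 on the log2 scale (-0.66 to 0.15, adjusted p = 0.835), and 0 of the 10 genes passed there, with 0 at an unadjusted p under 0.05 (7.63% of all genes) and 0 with DESeq2, against 0.404% of all genes called.

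The design also asks whether the effect of 1 deletion depended on the other. Each single knockout stood above Control in mean Kdr, at 24.8 ± 3.97 CPM in NFKO (SD, n = 3) and 29.6 ± 6.5 CPM in AnkGKO (SD, n = 2) against 18.4 ± 3.5 CPM in Control (SD, n = 3), whereas DKO stood below it, at 13.7 ± 1.58 CPM (SD, n = 3). The interaction of the knockouts, which is the departure of DKO from the sum of both single effects, was -1.54 on the log2 scale for Kdr (standard error 0.25, adjusted p = 0.0193 in edgeR). Of all genes tested, 0.530% were called for the interaction, and Kdr was the only 1 of the 10. In a test of any difference among the 4 genotypes, Kdr had an adjusted p of 0.0520, so 0 of the 10 genes were called there in edgeR, against 0.723% of all genes. In that test 2 of the 10 had an unadjusted p under 0.05, against 11.3% of all genes. DESeq2 called 1 of the 10 there, and 1137 genes in all.

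DESeq2 also called Kdr for DKO against NFKO, DKO against AnkGKO and the interaction (adjusted p = 3.1e-05, 7.4e-07 and 1.3e-07). It called 418, 99 and 314 of all genes there, more than edgeR did. In edgeR, these Kdr calls stand close to the threshold. They were lost when 1 library was left out in 7 of 11 fits for DKO against NFKO, in 9 of 11 for DKO against AnkGKO and in 5 of 11 for the interaction, and in all 3 without Control replicate 1 and NFKO replicate 1 together (adjusted p = 0.140, 0.127 and 0.122 in edgeR), while the log2 fold changes there stayed at -0.89, -1.11 and -1.52. With Xist as a covariate the log2 fold changes were -1.12, -1.39 and -2.03 and no longer passed (adjusted p = 0.162, 0.176 and 0.229 in edgeR). Among the libraries with Xist at 28.4 CPM or more, Kdr was at 16.9 and 22.4 CPM in Control and 11.9 to 14.8 CPM in DKO. In libraries with low Xist it was at 15.9 CPM in Control, 21.6 to 29.2 CPM in NFKO and 25 and 34.2 CPM in AnkGKO, and sex, as far as Xist marks it, cannot be told apart from the single knockouts, which had no library with high Xist.

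**Figure D3:**
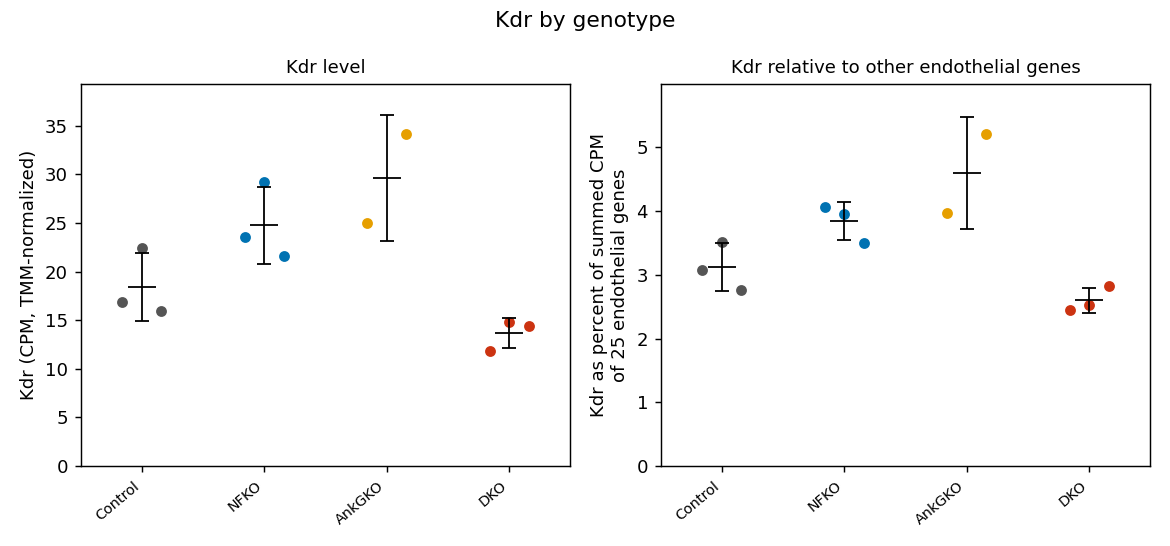
The left panel plots Kdr in CPM and the right panel Kdr as a percent of the summed CPM of 25 endothelial identity genes, which do not include it, with points for libraries and black bars for the mean ± SD of each genotype. On both scales DKO lies below both single knockouts, and on the right it overlaps Control in 1 library, at 2.82 against 2.77 to 3.52 percent.

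Other endothelial genes had a lower summed level on mean in DKO, with libraries that overlapped NFKO and Control, so Kdr was also set against them. Summed over the 25 identity genes, the level was 485 to 585 CPM in DKO, 580 to 738 CPM in NFKO, 629 and 656 CPM in AnkGKO and 549 to 637 CPM in Control, and the DKO mean was 18.4% below NFKO and 18.1% below AnkGKO. Kdr amounted to 2.45, 2.53 and 2.82% of that sum in DKO, 4.06, 3.96 and 3.5% in NFKO, 3.98 and 5.22% in AnkGKO and 3.07, 3.52 and 2.77% in Control. It therefore lay lower in DKO than in both single knockouts also relative to the other endothelial genes, without overlap. No other gene of the 10 showed this, since Tek made up 3.28 to 4.04% of the sum in DKO and 3.35 to 4.40% in NFKO and Pecam1 4.93 to 5.82% against 4.94 to 5.92%.

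Tek had differences of the same sign as Kdr and of smaller size. The Control libraries had 18.5, 23.7 and 22.3 CPM of Tek, and the others 24.2, 32.5 and 20.7 CPM in NFKO, 24.9 and 28.0 CPM in AnkGKO and 18.1, 19.1 and 20.6 CPM in DKO. DKO lay below both single knockouts without overlap, though narrowly (20.6 against 20.7 CPM), and AnkGKO lay above all Control libraries. The log2 fold change of Tek was -0.42 for DKO against NFKO (95% interval -0.75 to -0.09, adjusted p = 0.210 in edgeR), -0.46 for DKO against AnkGKO (-0.82 to -0.09, adjusted p = 0.530) and -0.72 for the interaction (-1.21 to -0.23, adjusted p = 0.273), so that none passed. Flt1 was at 83.2, 85.4 and 80.4 CPM in Control, 82.2, 96.6 and 68.1 CPM in NFKO, 76.0 and 89.1 CPM in AnkGKO and 63.3, 74.7 and 72.4 CPM in DKO. DKO lay below Control and below AnkGKO without overlap and overlapped NFKO. The log2 fold change of Flt1 was -0.24 for DKO against Control (-0.49 to 0.01, adjusted p = 0.639), and its interaction was -0.22 (-0.60 to 0.15).

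Vwf, the clotting factor that endothelial cells store and secrete and that larger vessels express most, was the most variable of the 10. It was at 19.8, 62.5 and 36.7 CPM in Control, 46.4, 85.6 and 57.5 CPM in NFKO, 50.5 and 22.0 CPM in AnkGKO and 32.5, 32.1 and 20.1 CPM in DKO, a 4.33-fold range over all libraries, with the lowest of the 11 in Control. DKO lay below all NFKO libraries, and the log2 fold change between them was -1.16 (95% interval -2.31 to -0.02, adjusted p = 0.305 in edgeR). NFKO against Control gave 0.67 (-0.46 to 1.80). Within genotypes the SD of Vwf was 0.63 on the log2 scale, larger than that of 97.6% of the 13910 genes with a mean of at least 1 CPM. Vwf moved with markers of other cells: over the 11 libraries its log2 CPM correlated with that of 9 summed fibroblast and meningeal markers at Pearson's r of 0.94 and with 7 smooth muscle markers at 0.90. The fibroblast sum was 176 to 484 CPM in DKO, 611 to 1706 CPM in NFKO, 503 and 232 CPM in AnkGKO and 219 to 553 CPM in Control, and its part in the Vwf values was not tested. None of the 9 fibroblast and 7 smooth muscle markers was called in any comparison, and these correlations share the libraries and their depth and carry no p.

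**Figure D4:**
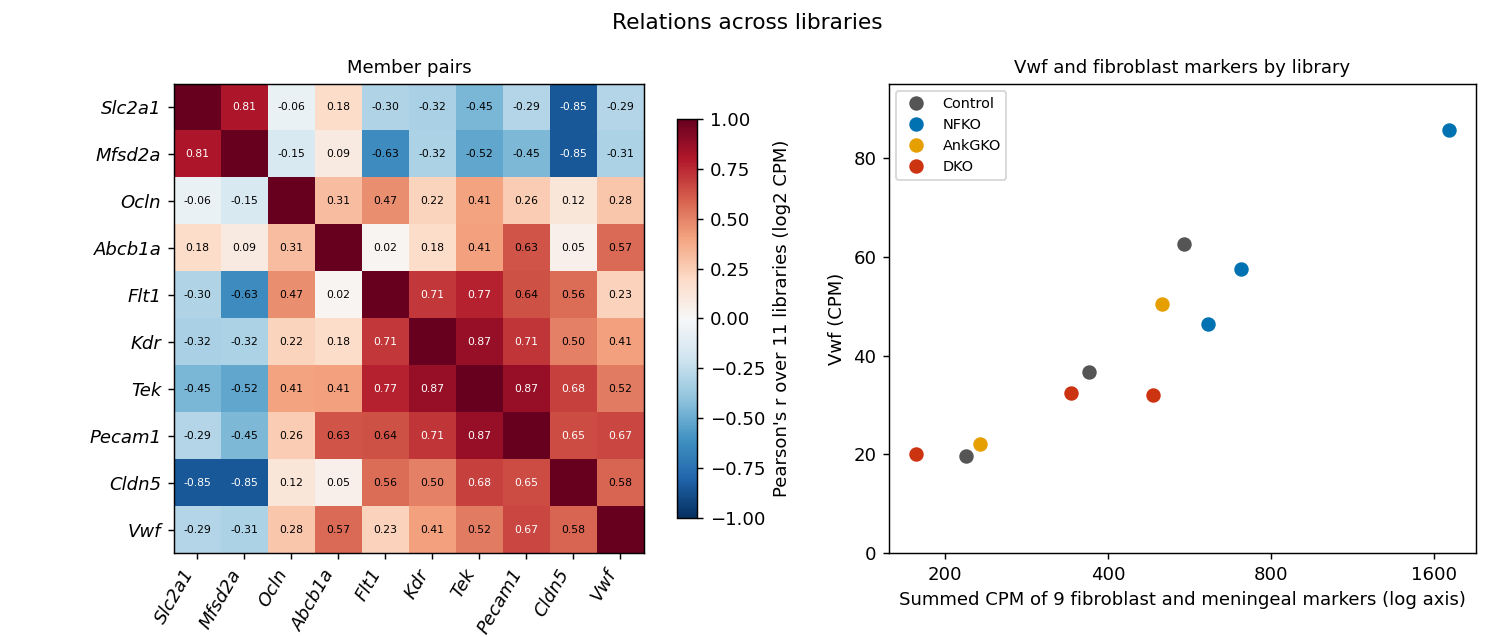
The left panel shows Pearson's r between the log2 CPM of each pair of the 10 genes over 11 libraries, and the right panel Vwf (CPM) against the summed CPM of 9 fibroblast and meningeal markers (log axis), with points for libraries colored by genotype. Pecam1, Tek, Flt1 and Kdr form a block of positive values from 0.64 to 0.87, Slc2a1 and Mfsd2a are negative against Cldn5, and Vwf is highest in the NFKO library with the highest fibroblast sum.

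The 10 genes did not vary as 1 unit. Of their 45 pairs, 31 had a positive r over the 11 libraries, and the 6 pairs among Pecam1, Tek, Flt1 and Kdr ranged from 0.64 to 0.87, and from 0.59 to 0.86 when the genotype means were removed first. Slc2a1 and Mfsd2a went together (r = 0.81) and ran opposite to Cldn5, with r of -0.85 for both pairs, which remained at -0.85 for Slc2a1 and -0.88 for Mfsd2a within genotypes. Libraries high in Cldn5 were thus low in both transporter genes, also within genotypes. These values describe 11 libraries that share depth and dissection, and no cause was tested. The genotypes held 82.1% of the variance of Kdr and 53.0% of that of Tek, against a median of 34.0% over the 13910 genes, and 9.70% for Mfsd2a and 9.64% for Abcb1a. The SD within genotypes exceeded the median of all genes (0.13 on the log2 scale) for each of the 10, from 0.16 in Flt1 to 0.36 in Mfsd2a and 0.63 in Vwf, whereas counting error alone amounted to only 1.01 to 4.21% of their levels.

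Outside the 10 genes, the pattern most like their mean over the 11 libraries (mean of z-scored log2 CPM) was that of Lama1, a basement membrane laminin chain, at r = 0.96, followed by the endothelial cadherin Cdh5 at 0.94 and the endothelial phosphatase Ptprb at 0.93. Sema3d (0.92), Mylk (0.91), Dab2 (0.91), Cmklr1 (0.91), Sorbs2 (0.90) and Cd93 (0.89) were also among the first 10 of the genes compared. For Cldn5 alone the most alike were Mettl10 (0.93), Pmfbp1 (0.92) and Tbx1 (0.89), and none of its first 10 was an endothelial identity gene. With 11 libraries and so many genes, values of this size are a description only.

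Taken as a list, the 10 genes had a median log2 fold change of 0.12 in NFKO, 0.06 in AnkGKO and -0.14 in DKO against Control while the median of all genes lay between -0.00505 and 0.00865 in the 7 comparisons. For DKO the median was -0.24 against NFKO (7 of 10 lower) and -0.16 against AnkGKO (8 of 10 lower), and for the interaction it was -0.26 (8 of 10 lower). Groups did not overlap, with DKO lower, for Flt1 and Kdr against Control, where 6.8% of all genes were lower in this way, for Tek, Kdr and Vwf against NFKO (10% of all genes), and for Pecam1, Tek, Flt1 and Kdr against AnkGKO (11.3%). AnkGKO was higher than Control without overlap for Tek and Kdr (11.7% of all genes). None of the 10 was separate in NFKO against Control (7.42% of all genes higher, 6.51% lower) or against AnkGKO (12.1% higher, 11.8% lower), none was lower in AnkGKO than Control (12.3%), and none was higher in DKO than in Control (7.65%), NFKO (9.32%) or AnkGKO (12.4%). An unadjusted p under 0.05 was reached by Tek, Kdr and Vwf for DKO against NFKO (16.2% of all genes) and by Tek and Kdr for DKO against AnkGKO (8.48%) and for the interaction (10.3%). The comparisons with DKO share its 3 libraries, so their values are not independent of each other.

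The wider endothelial program was followed through 25 further identity genes. In DKO, 20 of 25 had a negative log2 fold change against Control (median -0.24), 24 of 25 against NFKO (median -0.34) and 25 of 25 against AnkGKO (median -0.26), with unadjusted p under 0.05 in 8, 11 and 8 genes, where 7.77%, 16.2% and 8.48% of all genes reached that level. Of these, 1 was called, Mmrn2, an endothelial matrix glycoprotein, for DKO against NFKO, in which 0.615% of all genes were called. Mmrn2 was at 12.3, 11.8 and 13.0 CPM in Control, 13.9, 15.2 and 14.2 CPM in NFKO, 13.4 and 11.1 CPM in AnkGKO and 8.42, 8.73 and 8.94 CPM in DKO, below every other library. Its log2 fold change was -0.73 against NFKO (standard error 0.10, adjusted p = 0.00415 in edgeR), -0.50 against AnkGKO (adjusted p = 0.159) and -0.51 against Control (adjusted p = 0.401). In NFKO and AnkGKO the identity genes had positive medians against Control (0.12 in each), with 19 and 18 of 25 higher and 0 called.

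Pericytes, the contractile cells that wrap brain capillaries, were followed through 11 markers, since these levels moved with those of the receptors. Rgs5, a pericyte signalling regulator, was at 38.0, 39.1 and 38.1 CPM in Control, 50.8, 48.7 and 40.2 CPM in NFKO, 54.3 and 62.3 CPM in AnkGKO and 28.1, 35.3 and 33 CPM in DKO, so that DKO was lowest, then Control, NFKO and AnkGKO, with no overlap between any of them. Rgs5 was called lower for DKO against AnkGKO, at -0.86 on the log2 scale (standard error 0.11, adjusted p = 0.00805 in edgeR), and for the interaction at -1.14 (standard error 0.15, adjusted p = 0.00457). Against NFKO it had -0.53 (adjusted p = 0.0360), under the fold-change threshold. Pdgfrb, the receptor that recruits pericytes, was called for the interaction at -0.73 (standard error 0.13, adjusted p = 0.0282), with 41.0, 48.7 and 43.4 CPM in NFKO and 47.3 and 46.8 CPM in AnkGKO above Control (30.2, 36.8 and 36.2 CPM) and DKO (37.6, 34.7 and 37.4 CPM) inside or close to the Control range. These were 1 and 2 of the 11 pericyte markers, for DKO against AnkGKO and the interaction, where 0.171% and 0.530% of all genes were called. Summed over all 11, the level was 257 to 275 CPM in DKO, 317 to 405 CPM in NFKO, 339 and 353 CPM in AnkGKO and 264 to 312 CPM in Control. Kdr correlated with that sum at r = 0.88 and Tek at 0.91 over the 11 libraries, and its part in the Kdr result was not tested.

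No VEGF ligand of the VEGF pathway list was called, and neither were Nrp1 and Nrp2. Of 14 VEGF pathway genes, 1 was called (0.615% of all genes in that comparison), Apln, a peptide ligand made by growing vessels and by neurons, for DKO against NFKO at -0.71 (standard error 0.11, adjusted p = 0.0129 in edgeR). It was at 122, 96.6 and 102 CPM in NFKO, 57.6, 71.9 and 67.2 CPM in DKO, and in Control at 82.0, 71.9 and 82.0 CPM, with AnkGKO at 76.5 and 94.3 CPM, so NFKO was the high group. In the whole list 12 of 14 were lower in DKO than in NFKO (median -0.30) and 9 of 14 lower than in Control (median -0.09). Vegfa, with the smallest p of the list for DKO against Control, had -0.32 there (adjusted p = 0.574 in edgeR). None of 6 angiopoietin pathway genes was called, and Angpt1, the activating ligand of Tek, had 0.49 in AnkGKO against Control (adjusted p = 0.776). Wnt signals induce and maintain the barrier, and none of 17 Wnt barrier genes was called, the smallest p against Control being that of the ligand Wnt7b in AnkGKO (0.31, adjusted p = 0.547).

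**Figure D5:**
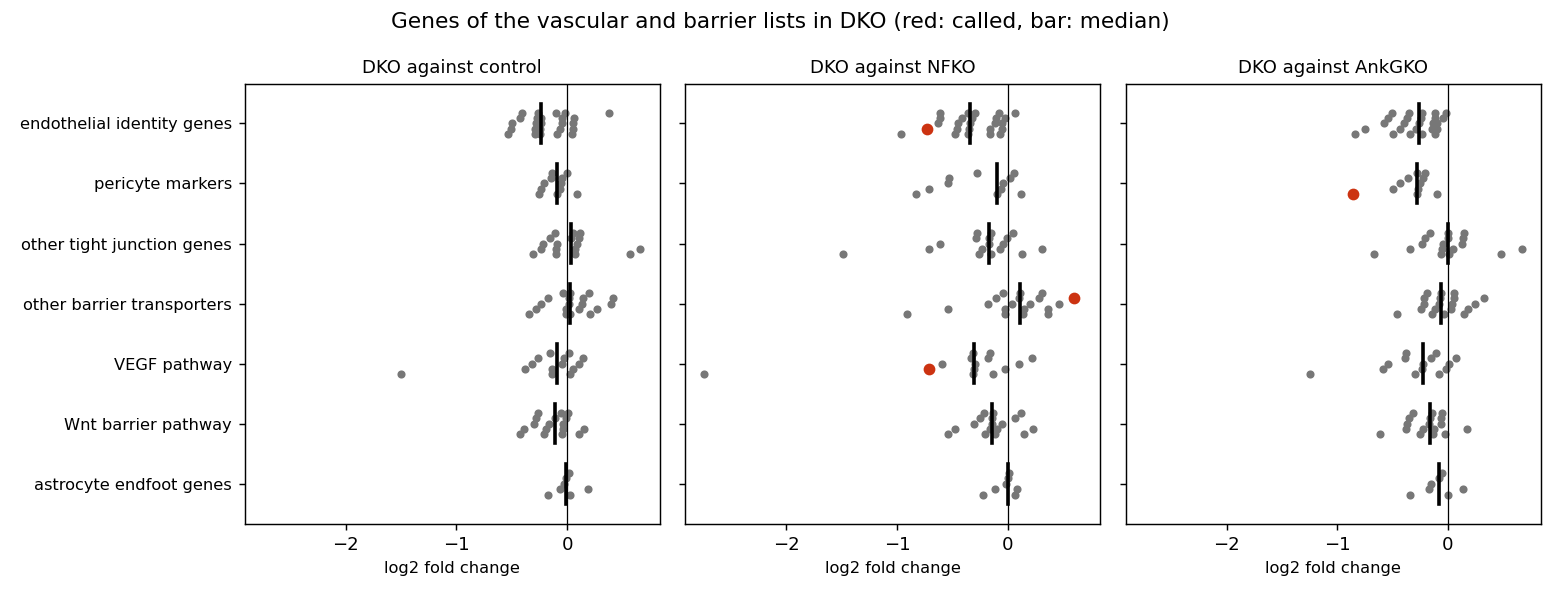
Points give the log2 fold change of each gene of 7 lists for DKO against Control, NFKO and AnkGKO, with red for called genes and a black bar for the median of the list. The endothelial identity genes lie mostly left of 0 in all panels, with medians from -0.34 to -0.24, and the red points are Mmrn2, Slc7a5 and Apln against NFKO and Rgs5 against AnkGKO.

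Barrier genes beyond the 10 showed few differences. Of 19 other barrier transporters, 1 was called (0.615% of all genes in that comparison), Slc7a5, the large neutral amino acid transporter, which was higher in DKO than in NFKO by 0.61 (standard error 0.11, adjusted p = 0.0244 in edgeR). Slc7a5 was at 133, 122 and 125 CPM in DKO, 79.7, 75.4 and 94.5 CPM in NFKO, and in Control at 124, 109 and 97.7 CPM, with AnkGKO at 96.6 and 117 CPM. The transporter list had a median of 0.11 for DKO against NFKO with 12 of 19 higher, opposite in sign to that of the endothelial identity genes. None of 17 other tight junction genes and none of 6 vesicle and fenestration genes was called, with Cldn10 at 0.28 in NFKO (adjusted p = 0.254) and Cavin3, a caveolar coat protein, at -0.73 in NFKO (adjusted p = 0.424) having the smallest p against Control. Of 12 arterial and venous genes, Gja5, the connexin of arterial endothelium, had the smallest p against Control: it was at 0.420, 0.771 and 0.510 CPM in DKO and 0.928 to 1.51 CPM in Control, with a log2 fold change of -1.10 (adjusted p = 0.528). Of 9 genes of activated endothelium, 9 were higher in NFKO than in Control (median 1.30, 6 with an unadjusted p under 0.05, against 7.69% of all genes) and 0 were called by edgeR (0.365% of all genes), with Tnfrsf1a at 0.28 in DKO (adjusted p = 0.562). In AnkGKO, 8 of 9 were higher than in Control (median 0.29, 3 with an unadjusted p under 0.05, against 5.39% of all genes). In DKO, 7 of 9 were higher (median 0.29, 1 with an unadjusted p under 0.05, against 7.77%).

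Markers of other cells were examined in the same fits. In all, 16 of 20 lists had no called gene in any of the 7 comparisons, among them those of red blood cells, platelets, lymphatic vessels, choroid plexus, astrocyte endfeet, Purkinje cells, granule cells, caudal Hox genes, fibroblasts and smooth muscle. Summed red blood cell markers (Hba-a1, Hba-a2, Hbb-bs and Alas2, of which 2 passed the filter on low counts) were 376 to 430 CPM in NFKO, 268 and 348 CPM in AnkGKO, 211 to 354 CPM in DKO and 185 to 225 CPM in Control. NFKO thus lay above every other library in this sum, with Hbb-bs at 0.97 against Control (adjusted p = 0.0506 in edgeR), and its part in the values of the 10 genes was not tested. Platelet genes were low, with Pf4 at 0.218 to 1.66 CPM and a log2 fold change of 1.18 in NFKO (adjusted p = 0.533). The lymphatic vessel marker Lyve1 lay between 0.237 and 2.68 CPM, and Prox1, at 20.1 to 37.0 CPM, is also expressed by neurons and glia, with 0.43 in AnkGKO (adjusted p = 0.676). Ttr, the defining choroid plexus gene, was at 0.223 to 6.29 CPM, with -3.42 in AnkGKO (adjusted p = 0.934). Among astrocyte endfoot genes, which summed to 3129 to 3532 CPM, Gja1 had the smallest p against Control (0.19 in DKO against Control, adjusted p = 0.611). Igf2, Myl9, Zic2 and Hoxb8, named by the same rule from the fibroblast, smooth muscle, granule cell and Hox lists, had log2 fold changes against Control of 1.61 and 0.43 in NFKO and of -1.26 and -0.21 in DKO, with adjusted p of 0.646, 0.849, 0.619 and 0.733 in edgeR. For Purkinje cells the gene named by the rule was Pcp2, at -5.04 in DKO (adjusted p = 0.646), where the Control libraries ran from 0.167 to 26.3 CPM.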

How the data were processed

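RNA-seq libraries were made from 11 mice of 4 genotypes, 3 Control, 3 NFKO, 2 AnkGKO and 3 DKO. The authors deposited raw read counts per gene, and per the labels and the study's methods reads were trimmed with Trimmomatic 0.39 and aligned to GRCm39 (Ensembl release 111) with STAR 2.7.11a. They also deposited a normalized signal, which equals the counts divided by 1 size factor per library (0.815 to 1.16) and was used only to read those factors. Reads aligned to more than 1 place were 32.5 to 34.3% of all lines and, with the other 4 summary lines, were left out.

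Counts were tested with edgeR 4.0.16 (R 4.3.3, TMM, robust quasi-likelihood F-test) over all 11 libraries and the 17557 genes with at least 10 counts in all. A gene was called where the Benjamini-Hochberg adjusted p was under 0.05 and the log2 fold change 0.6 or more in size, in 7 comparisons and 1 test of any genotype difference. CPM are TMM-normalized, and correlations used log2 CPM with a prior count of 0.5. The functions were tested on simulated data. DESeq2 1.42.0, other filters and size factors, only the libraries compared, a replicate block, Xist as a covariate and leaving out each library were alternatives. Leaving out Control replicate 1 and NFKO replicate 1 together, and unadjusted p-values, were added after seeing the data. The 10 genes and all lists were chosen with earlier results of these data known. From each list up to 3 called genes with the smallest p were named, or otherwise the gene with the smallest p against Control. The genes most like the mean of the 10 were the first 10 by r, of which 1 is not reported here.

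Labels number the replicates without saying what a number marks. Control and NFKO libraries of the same number shared their deviations from the group means (r = 0.554, 0.466 and 0.261 over 13910 genes), so these numbers may pair them. The 0.554 joins Control replicate 1 and NFKO replicate 1, which stand apart in Pcp2 and granule cell markers. NFKO and DKO gave 0.0422, 0.469 and 0.282, and every other pair of groups held a negative value. The main fits did not use the numbers, and the replicate block was the alternative that did. The labels call the replicates biological, and p-values measure the spread between these libraries. Counting intervals and floors cover counting error only.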

Additional observations from a re-analysis of the deposited data

Results flagged for a closer look

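The interaction of the knockouts was called for Kdr, at -1.54 on the log2 scale (standard error 0.25, adjusted p = 0.0193 in edgeR). The call was lost in 5 of 11 fits that left out 1 library. It was also lost with Xist as a covariate, at -2.03 (adjusted p = 0.229 in edgeR). Kdr stood higher than Control in 3 of 3 NFKO libraries against the Control mean of 18.4 CPM and in 2 of 2 AnkGKO libraries, and lower in 3 of 3 DKO libraries. Xist, the endothelial sum and the pericyte sum moved with these genotypes, and their part in the result was not tested beyond the fit with Xist as a covariate.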

How the results depend on the processing

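Of 1390 alternative values for the 70 log2 fold changes of the 10 genes, 0 reversed a call, 28 lost one and 1 gained one, all of them for Kdr. Genes called of the 10 went from 1 to 0 for DKO against NFKO, DKO against AnkGKO and the interaction with Xist as a covariate, likewise for all 3 without Control replicate 1 and NFKO replicate 1 together (added after seeing the data), and for DKO against AnkGKO with only the libraries compared (adjusted p = 0.0865). The count went from 0 to 1 for AnkGKO against Control with DESeq2, and for any genotype difference with DESeq2, with no filter and with the replicate block. At an unadjusted p under 0.05 (also added) it was 1 for each knockout against Control, where 7.69% (NFKO), 5.39% (AnkGKO) and 7.77% (DKO) of all genes reached that level. It was 3 for DKO against NFKO (16.2% of all genes), and 2 for DKO against AnkGKO (8.48%), the interaction (10.3%) and any genotype difference (11.3%). Leaving out 1 library gave 0 to 1 genes for these last 4, and 0 for the comparisons against Control and for NFKO against AnkGKO. DKO against NFKO lost Kdr without Control replicate 1 or 3, NFKO replicate 1 or 2 or any DKO library, the interaction without Control replicate 1 or 3, AnkGKO replicate 2 or DKO replicate 1 or 3, and DKO against AnkGKO in all cases but Control replicate 2 and NFKO replicate 2. The Kdr log2 fold changes then ranged from -0.96 to -0.72, from -1.75 to -1.31 and from -1.32 to -0.88, and the cause of the lost calls was not tested.

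With the replicate block, Kdr had -0.85 for DKO against NFKO (adjusted p = 0.00528 in edgeR), -1.05 for DKO against AnkGKO (0.0105), -1.48 for the interaction (0.00311) and 0.43 for NFKO against Control (0.183), and beyond the test of any genotype difference it changed no call among the 10 genes. Outside Control and NFKO, same-numbered libraries had r from -0.465 to 0.469, so the number is no established pairing there.

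Over all genes, DESeq2 called 159, 102, 44, 418, 99, 199 and 314 genes for Control compared with NFKO, with AnkGKO and with DKO, for DKO against NFKO and against AnkGKO, for NFKO against AnkGKO and for the interaction, where edgeR called 64, 29, 4, 108, 30, 71 and 93. With Xist as a covariate these were 31, 13, 5, 43, 9, 72 and 19, and without Control replicate 1 and NFKO replicate 1 together 29, 20, 4, 59, 20, 33 and 41. Leaving out 1 library gave 40 to 71, 18 to 35, 4 to 8, 68 to 162, 12 to 40, 28 to 76 and 52 to 102. Only the libraries compared gave 11 for DKO against AnkGKO. For any genotype difference, the counts were 127 in edgeR, 1137 in DESeq2, 76 with Xist and 62 without both libraries. AnkGKO rests on 2 libraries, which limits its comparisons.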
